A study of Mus musculus with 2 samples.

Results

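The transforming growth factor beta (TGF-beta) and activin pathway was followed through 9 genes, chosen by symbol for their roles and not for their values. They are 9 of the 33696 genes counted in each library, and all 9 were found under the same Ensembl gene ID as in the annotation. Tgfb1, Tgfb2 and Tgfb3 encode the 3 TGF-beta ligands, Inhba the activin A subunit, and Thbs1 thrombospondin-1, a matrix protein that can release TGF-beta from its latent complex. Tgfbr1 and Tgfbr2 encode the type I and type II TGF-beta receptors, Smad7 an inhibitor of the receptors that the pathway itself induces, and Tgfbi a secreted matrix protein named for its induction by TGF-beta.

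Cells came from tumours of LLC, the mouse Lewis lung carcinoma line, and both samples are labelled as lymphocytes that had infiltrated the tumour. One library came from Dusp2 knockout mice (KO) and 1 from wild-type mice (WT), and no treatment, time or age is given for either. Dusp2 encodes a nuclear phosphatase of MAP kinases. The series title ties type I interferon, Dusp2 and NFAT to tumour remodelling, which is the question the KO against WT comparison addresses. The labels give polyA RNA as the molecule of the KO library and total RNA as that of the WT library, while both were made with the same 10x 3' kit. With 1 library per genotype there was no replicate and no test, and genotype cannot be told apart from animal, tumour or library preparation.

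The KO library held 12744 barcodes and 101532711 UMIs (unique molecular identifiers, counted RNA molecules), and the WT library 9890 barcodes and 113873249 UMIs. The libraries shared 31 barcodes. After filters on detected genes and mitochondrial UMIs, 12636 KO and 9765 WT cells remained, with medians of 4796 and 8598 UMIs. Cells were sorted into types by minimum UMIs of marker genes, and cells that met more than 1 type, 1440 KO (11.4%) and 906 WT (9.28%), were left out. This gave 1649 KO and 4462 WT macrophages, 208 and 680 monocytes, 2150 and 1246 T cells, 181 and 444 NK cells, and 58 and 92 fibroblasts. The tumour cell gate took only 22 KO and 34 WT cells, because the dendritic gate included Fscn1, which the tumour cells carried. Of the cells in that dendritic gate, 68.8% in KO and 68.5% in WT had at least 2 UMIs of the tumour marker Rhox5. Without Fscn1 in the dendritic gate, a change made after the data were seen, the tumour gate held 356 KO and 406 WT cells, and these are the tumour cells described here. Contrary to the label, macrophages were the most numerous type in the WT library, and the KO library also held 3590 B cells, against 10 in WT.

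Dusp2 itself was at 2.54 CPM (UMIs of a gene per 1000000 UMIs of the cell type) in KO T cells against 439.6 CPM in WT T cells, at 1.004 against 1131 CPM in NK cells and at 8.61 against 63.1 CPM in macrophages. In tumour cells it was level, at 75.8 CPM in KO and 76.8 CPM in WT. The gated types carried the markers held back for a check: Trac at 774 CPM in KO and 633 CPM in WT T cells, Sparc at 9922 and 5527 CPM in fibroblasts, and Rhox5 at 894 and 935 CPM in tumour cells. The antibody light chain gene Igkc was at 1302 CPM in KO T cells and 522 CPM in KO macrophages, against 22.8 and 0.434 CPM in the same WT cells. All intervals in parentheses are 95% and cover counting error only.

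TGF-beta is secreted bound to its propeptide and to latent TGF-beta binding proteins, and has to be released by integrins, proteases or thrombospondin-1 before it binds the type II receptor. The type II receptor then recruits the type I receptor, which phosphorylates Smad2 and Smad3, and Smad7 is induced as a brake. Activin A uses separate receptors but the same Smads. In tumours the ligands are known as signals that restrain T and NK cells, shape macrophages and drive fibroblasts to make matrix.

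Leaving out B cells, of which WT had 10, the 9 genes divided among the cell types in a broadly similar way in both libraries. Inhba differed in this, with more in fibroblasts (228 CPM) than in macrophages (133 CPM) in WT, but less (175 against 195 CPM) in KO. Thbs1, Tgfbi and Inhba were myeloid, with macrophages and monocytes together holding 65.8% and 15.7% of all Thbs1 UMIs in KO and 75.0% and 19.7% in WT. Tgfbr2 and Smad7 were lymphocyte and fibroblast genes, Tgfb2 was a fibroblast gene, and Tgfb1 was found in every immune type with its peak in NK cells. Only the levels of 1 gene across cell types are compared here, not levels between genes. A lower level in a cell type can mean less RNA per cell or fewer cells carrying the gene, so shares of cells are given for the genes on which the results turn.

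**Figure D1:**
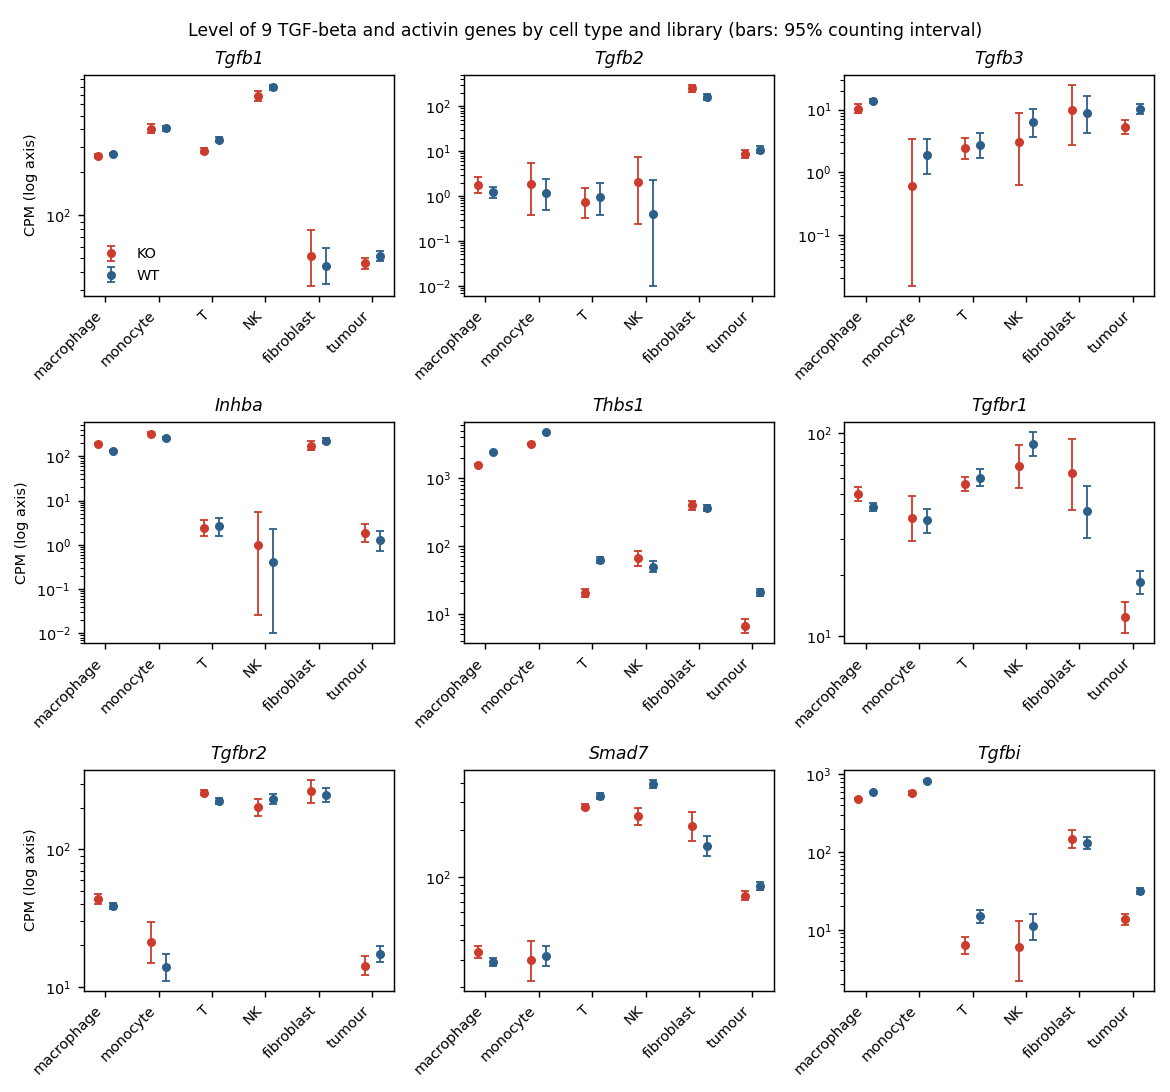
Level of each of the 9 genes (CPM, log axis) in 6 cell types, KO in red left of WT in blue, with bars for the 95% counting interval. Thbs1, Inhba and Tgfbi are high in macrophages, monocytes and fibroblasts, Tgfbr2 and Smad7 in T cells, NK cells and fibroblasts, and Tgfb2 reaches 251 CPM in KO and 163 CPM in WT fibroblasts.

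Among the ligands, Tgfb1, the main TGF-beta of immune cells, differed little between the libraries. It was at 686 CPM in KO and 789.9 CPM in WT NK cells (log2 -0.20, -0.33 to -0.08), and at 405 CPM in KO and 407 CPM in WT monocytes (log2 -0.01, -0.13 to 0.12). T cells held 284 CPM in KO and 339 CPM in WT (log2 -0.26, -0.34 to -0.18), and macrophages 262 CPM in KO and 269 CPM in WT (log2 -0.04, -0.09 to 0.02). The interval lay below 0 in T and NK cells and crossed 0 in macrophages and monocytes. Tumour cells and fibroblasts were lowest and overlapped each other, with 46.1 CPM in KO and 51.4 CPM in WT tumour cells, and 51.7 and 44.1 CPM in fibroblasts. B cells, of which WT had too few to compare, held in KO 309 CPM and 30.5% of the Tgfb1 UMIs of their library, more than KO macrophages with 18.8%.

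Tgfb2, a ligand best known from mesenchyme and epithelium, was read mainly in fibroblasts and tumour cells. Fibroblasts held 251 CPM in KO (102 UMIs) and 163 CPM in WT (181 UMIs; log2 0.62, 0.26 to 0.98). The fibroblast gate, however, also took cells with tumour markers in both libraries, and more so in WT. The 4 tumour markers summed to 502 CPM in KO and 940 CPM in WT, among them Krt8 at 9.84 CPM in KO and 165 CPM in WT. With at most 1 UMI of Rhox5, Krt8 and Krt18 allowed, an alternative added after the data were seen, 56 KO and 71 WT fibroblasts remained, at 289 and 274 CPM (log2 0.08, -0.29 to 0.44). Dusp2 was at 44.3 CPM in the KO fibroblast gate and at 0 CPM in the stricter one. Tumour cells held 8.69 CPM in KO and 10.8 CPM in WT (log2 -0.31, -0.71 to 0.09). In macrophages, monocytes, T cells and NK cells Tgfb2 was at 0.754 to 2.01 CPM in KO and 0.400 to 1.23 CPM in WT, from 2 to 25 UMIs in KO and 1 to 54 in WT.

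Tgfb3, the third TGF-beta, was read in macrophages at 10.4 CPM in KO and 13.9 CPM in WT (log2 -0.42, -0.69 to -0.16). Within macrophages it followed complement C1q, which marks mature tissue macrophages. Cells with under 10 UMIs of C1qa, C1qb and C1qc together were lower than cells with at least 10, by log2 -1.43 (-2.23 to -0.71) in KO and -1.58 (-1.96 to -1.23) in WT. Tumour cells held 5.33 CPM in KO and 10.4 CPM in WT (log2 -0.96, -1.43 to -0.50), and the monocytes 1 UMI in KO and 11 in WT. With macrophages thinned to 2000 UMIs the log2 ratio of Tgfb3 was 0.05 and its interval crossed 0.

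Inhba, which encodes the subunit of activin A, was at 195 CPM in KO (2759 UMIs) and 133 CPM in WT macrophages (5806 UMIs), higher in KO (log2 0.55, 0.49 to 0.62). In monocytes it was at 324 CPM in KO and 261 CPM in WT (log2 0.31, 0.16 to 0.45). A minority of cells carried most of it: the tenth of macrophages with the most Inhba held 82.1% of its UMIs in KO and 80.4% in WT. With each macrophage thinned to 2000 UMIs, 17.7% of KO and 14.1% of WT macrophages carried it (unthinned 27.3% and 26.4%). In T cells, which should lack it, the thinned share was 0.508% in KO and 0.500% in WT. Median depths were 6768 UMIs in KO and 9034 in WT macrophages, and 4269 and 5163 in T cells. Fibroblasts held 175 CPM in KO and 228 CPM in WT, but 1 WT cell carried 179 of the 253 WT UMIs. Inhba was near 0 in T, NK and tumour cells, at 1.004 to 2.45 CPM in KO and 0.400 to 2.61 CPM in WT.

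The promoter windows of Inhba and Tgfbi are shown because these are members that differed in opposite directions between KO and WT macrophages, and because the series title names NFAT. Each runs from 250 bases before to 50 bases after the start in RefSeq (build GRCm38.p6), 5′ to 3′ on the plus strand, at chr13:16011601-16011900 for Inhba and chr13:56609336-56609635 for Tgfbi. Capitals mark matches on either strand to the NFAT core GGAAA, the AP-1 site TGANTCA or the SMAD motif CAGAC.
Inhba: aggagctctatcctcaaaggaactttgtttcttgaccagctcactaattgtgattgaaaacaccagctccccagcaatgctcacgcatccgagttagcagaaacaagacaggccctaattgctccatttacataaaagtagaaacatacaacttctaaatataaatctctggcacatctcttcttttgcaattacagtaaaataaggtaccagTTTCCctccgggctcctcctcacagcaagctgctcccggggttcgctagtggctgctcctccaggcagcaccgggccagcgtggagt
Tgfbi: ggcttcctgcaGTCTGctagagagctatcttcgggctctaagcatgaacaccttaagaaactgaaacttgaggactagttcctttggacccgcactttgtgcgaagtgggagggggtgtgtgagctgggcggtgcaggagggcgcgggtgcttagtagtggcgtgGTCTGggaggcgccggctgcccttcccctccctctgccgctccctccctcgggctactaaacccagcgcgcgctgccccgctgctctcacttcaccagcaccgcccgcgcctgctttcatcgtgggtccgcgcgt
The Inhba window held 1 NFAT core, on the minus strand, and no match to the AP-1 or SMAD letters. The Tgfbi window held 2 SMAD matches, both on the minus strand, and neither of the other motifs. Of all 32851 mouse promoter windows of the same length in that table, 61.3% held the NFAT core, 7.81% the AP-1 site and 49.6% the SMAD motif, so these matches are common and describe the letters only. Windows were listed for 6 of the 9 genes.

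Thbs1 was concentrated in monocytes and macrophages in both libraries and was lower in KO in both types. Macrophages held 1576 CPM in KO (22333 UMIs) and 2407 CPM in WT (105370 UMIs; log2 -0.61, -0.63 to -0.59), and monocytes 3234 CPM in KO and 4709 CPM in WT (log2 -0.54, -0.58 to -0.50). After thinning to 2000 UMIs, 69.8% of KO and 81.7% of WT macrophages carried it (unthinned 80.4% and 91.4%), against 3.33% and 7.84% of T cells. The median macrophage held 7 Thbs1 UMIs in KO and 16 in WT before thinning. Thbs1 is also a platelet gene, and platelet markers moved the same way: Ppbp was at 7.41 CPM in KO and 33.0 CPM in WT macrophages, Pf4, which macrophages express too, at 1122 and 1662 CPM, and Itga2b at 0.847 and 1.37 CPM. Their part in the Thbs1 difference was not tested.

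Tgfbi was the other mainly myeloid gene. It was at 488 CPM in KO and 590.2 CPM in WT macrophages (log2 -0.27, -0.31 to -0.24), and at 576 CPM in KO and 834 CPM in WT monocytes (log2 -0.54, -0.64 to -0.44). Macrophages and monocytes held 68.6% and 9.38% of its UMIs in KO, and 77.1% and 14.6% in WT. The thinned share of macrophages with Tgfbi was 54.3% in KO and 61.5% in WT. Fibroblasts held 148 CPM in KO and 131 CPM in WT (log2 0.17, -0.29 to 0.61), and 170.2 against 213 CPM without the cells that carried tumour markers (log2 -0.32, -0.79 to 0.13). Neither interval excluded 0.

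The receptors and Smad7 showed the reverse distribution. Tgfbr2, which binds the ligand, was at 259 CPM in KO and 225 CPM in WT T cells (log2 0.20, 0.11 to 0.29), at 202 and 233 CPM in NK cells (log2 -0.21, -0.45 to 0.03), and at 266 and 248 CPM in fibroblasts (log2 0.10, -0.24 to 0.42). These 3 types were several times above macrophages, with 43.6 CPM in KO and 38.7 CPM in WT (log2 0.17, 0.04 to 0.31), and monocytes, with 21.3 and 14.0 CPM (log2 0.61, -0.01 to 1.20). Monocytes were lower than macrophages by log2 -1.03 (-1.57 to -0.54) in KO and -1.47 (-1.81 to -1.15) in WT. The pooled T cell ratio did not hold in CD8 T cells, which had 218 CPM in KO and 235 CPM in WT (log2 -0.11, -0.26 to 0.03). The mix of T cells differed between the libraries, with other CD4 T cells making up 432 of 2150 in KO and 149 of 1246 in WT, so no direction is read from the pooled T cell ratios of Tgfbr2 and Tgfb1. In the stricter fibroblast gate Tgfbr2 was at 306 CPM in KO and 392 CPM in WT, lower in KO (log2 -0.36, -0.70 to -0.03).

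Tgfbr1, the signalling receptor, varied less between macrophages, monocytes, T cells, NK cells and fibroblasts. There it ran from 38.3 CPM in monocytes to 69.3 CPM in NK cells in KO, and from 37.1 to 88.7 CPM in the same types in WT. In KO the intervals of neighbouring types overlapped among NK cells, fibroblasts, T cells, macrophages and monocytes when taken in order. Macrophages held 50.2 CPM in KO and 43.1 CPM in WT (log2 0.22, 0.09 to 0.34), and tumour cells were lowest, with 12.3 and 18.4 CPM (log2 -0.58, -0.90 to -0.26). KO B cells held 139.7 CPM (135 to 145), above every other type of that library, and 42.8% of its Tgfbr1 UMIs. The B cells of the KO library also carried Tgfbr2 at 179 CPM and Smad7 at 115 CPM.

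Smad7 was high in NK cells, T cells and fibroblasts. NK cells held 245 CPM in KO and 392 CPM in WT, lower in KO (log2 -0.68, -0.89 to -0.48), and T cells 282 CPM in KO and 329 CPM in WT (log2 -0.22, -0.30 to -0.14). The thinned share of NK cells with Smad7 was 39.3% in KO and 50.7% in WT, at median depths of 4680 and 5288 UMIs, against 6.76% and 5.15% of macrophages. Macrophages ran the other way, with 33.7 CPM in KO and 28.9 CPM in WT (log2 0.22, 0.07 to 0.37). The 4 T cell markers summed to 31.9 CPM in KO and 11.3 CPM in WT macrophages, and Igkc was at 522 and 0.434 CPM. The part of lymphocyte RNA in the macrophage differences of Smad7, Tgfbr1 and Tgfbr2 was not tested. In C1q-low macrophages the Smad7 ratio was log2 -0.02 (-0.31 to 0.27). Tumour cells held 76.5 CPM in KO and 88.1 CPM in WT (log2 -0.20, -0.34 to -0.07).

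Between KO and WT most members stayed within 2-fold. In macrophages 0 of 9 members were past 2-fold, where 6.09% of the 15073 genes with at least 20 UMIs in both libraries together were (3.74% higher and 2.35% lower in KO). In monocytes 0 of 7 members with enough UMIs were past 2-fold, against 7.91% of genes (4.27% higher, 3.64% lower). In NK cells the count was 0 of 6 against 6.71% (2.22% higher, 4.49% lower), and in fibroblasts 0 of 8 against 14.6% (4.95% higher, 9.62% lower). In T cells 2 of 8 members, Thbs1 and Tgfbi, were more than 2-fold lower in KO, where 5.56% of genes were lower, 3.82% higher and 9.37% past 2-fold in either direction. In tumour cells 2 of 9 members, again Thbs1 and Tgfbi, were more than 2-fold lower, against 3.56% of genes lower, 1.7% higher and 5.26% in either direction. In the original tumour gate of 22 KO and 34 WT cells, 1 of 5 members, Tgfbi, was more than 2-fold lower, against 10.2% of genes lower, 4.57% higher and 14.7% in either direction. With tumour cells taken by Rhox5, Krt8 and Krt18 (190 KO and 115 WT cells), Tgfbi and Thbs1 were within 2-fold, at log2 -0.49 and -0.83, and Tgfb3 and Inhba were past it. The median log2 ratio of the members was 0.17 in macrophages, -0.01 in monocytes, -0.19 in T cells, -0.28 in NK cells, 0.20 in fibroblasts and -0.31 in tumour cells, while that of all genes lay between -0.10 and 0.00 in these types. In the stricter fibroblast gate Inhba, Thbs1, Tgfbr2 and Tgfbi lay below 0 (log2 -0.98, -0.41, -0.36 and -0.32). There Tgfb1, Tgfb2, Tgfbr1 and Smad7 lay above 0 (log2 0.29, 0.08, 0.21 and 0.24). No direction is therefore read from the fibroblast median.

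**Figure D2:**
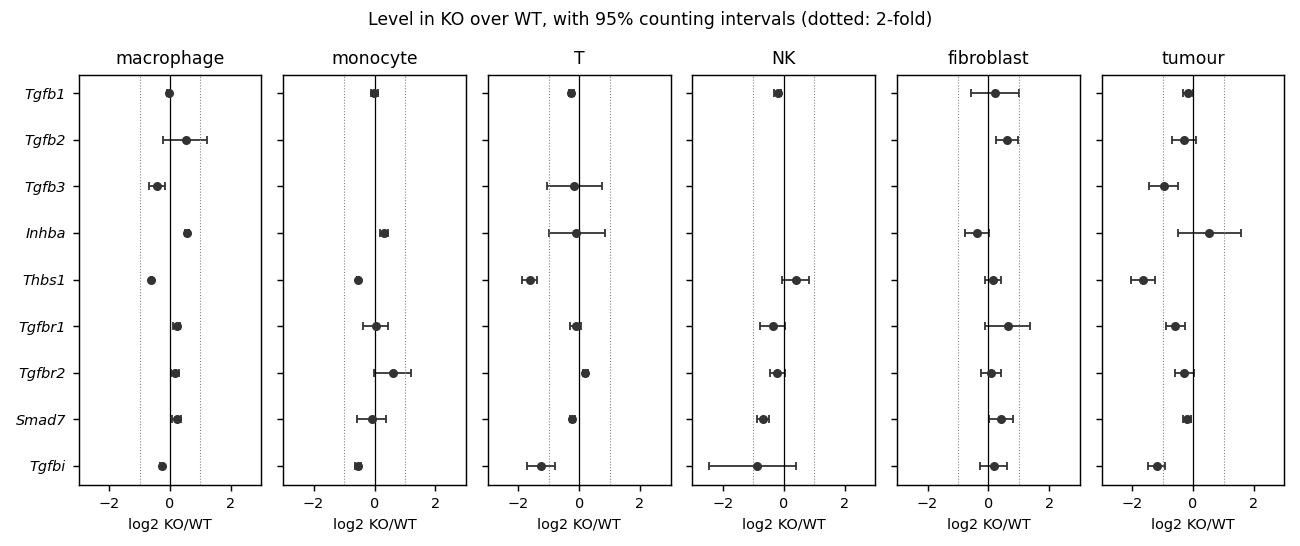
Log2 of the KO level over the WT level of each gene (x axis) in 6 cell types, with 95% counting intervals and dotted lines at 2-fold, for genes with at least 20 UMIs in both libraries together. Thbs1 lies left of 0 in macrophages (-0.61), monocytes (-0.54), T cells (-1.63) and tumour cells (-1.64), and Inhba lies right of 0 in macrophages (0.55) and monocytes (0.31).

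Macrophages were next divided by raw UMIs of single state genes: Il1b, an inflammatory cytokine, Arg1, an arginine-degrading enzyme of tumour macrophages, Cxcl9, an interferon-gamma-induced chemokine, and the C1q genes. Inhba followed Il1b most. Macrophages with at least 3 Il1b UMIs held 279.7 CPM of Inhba in KO and 163 CPM in WT, and those with fewer 46.8 CPM in KO and 43.1 CPM in WT. The log2 ratio of Il1b-high over Il1b-low cells was 2.58 (2.39 to 2.78) in KO and 1.92 (1.78 to 2.05) in WT. KO exceeded WT in the Il1b-high cells (log2 0.78, 0.71 to 0.85), while in the Il1b-low cells the interval crossed 0 (log2 0.12, -0.11 to 0.34). The 2 intervals of the KO over WT ratio do not overlap, but the difference between them was not tested.

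The KO over WT ratio of Inhba also varied with Arg1, C1q and Cxcl9. In macrophages with at least 5 Arg1 UMIs Inhba was at 306 CPM in KO and 163 CPM in WT (log2 0.91, 0.80 to 1.02), and in the others at 160.4 and 122 CPM (log2 0.40, 0.31 to 0.48). With under 10 C1q UMIs it was at 355 CPM in KO and 214 CPM in WT (log2 0.73, 0.64 to 0.83), and with at least 10 at 135 and 101 CPM (log2 0.42, 0.33 to 0.51). With under 2 Cxcl9 UMIs it was at 217 CPM in KO and 135 CPM in WT (log2 0.68, 0.60 to 0.77). With at least 2 it was at 165 and 128 CPM (log2 0.37, 0.26 to 0.48). Of the 8 subsets, C1q-low cells held the most Inhba in both libraries, and Arg1-high cells had the largest KO over WT ratio. These are cuts on raw UMIs, and WT macrophages were deeper, so cells near a cut pass it more easily in WT. Il1b-high cells were 993 of 1649 KO and 3153 of 4462 WT macrophages.

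Thbs1 also followed Il1b, with 2038 CPM in KO and 2805 CPM in WT Il1b-high cells, and 771 and 1223 CPM in Il1b-low cells. It was lower in Cxcl9-carrying macrophages than in the others, by log2 -0.90 (-0.94 to -0.86) in KO and -0.83 (-0.85 to -0.81) in WT. Unlike Inhba, Thbs1 was lower in KO in each of the 8 subsets, from -0.67 to -0.46 on the log2 scale. Tgfbi barely varied with Il1b, by log2 0.08 (0.01 to 0.15) in KO and 0.12 (0.07 to 0.16) in WT. It was lower in KO in each subset too, from -0.37 to -0.10.

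Both receptors were lower in Il1b-high macrophages. Tgfbr2 was at 32.1 CPM in KO and 32.3 CPM in WT Il1b-high macrophages, and at 63.6 and 57.5 CPM in Il1b-low ones, a log2 ratio of -0.99 (-1.22 to -0.75) in KO and -0.83 (-0.97 to -0.69) in WT. For Tgfbr1 the same ratio was -0.77 (-0.99 to -0.55) in KO and -0.55 (-0.69 to -0.41) in WT. By C1q, Tgfbr1 had no common direction, with 54.6 CPM in KO and 37.2 CPM in WT C1q-low cells, and 48.5 and 45.5 CPM in C1q-high cells. Tgfb1 was slightly higher in Il1b-high cells, by log2 0.41 (0.31 to 0.51) in KO and 0.30 (0.24 to 0.37) in WT.

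**Figure D3:**
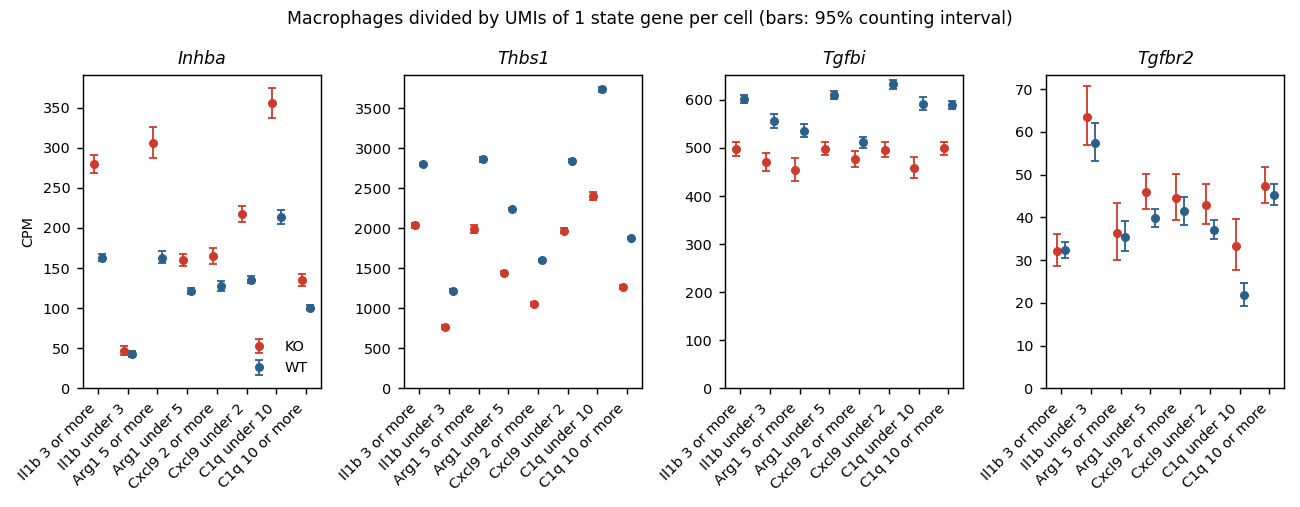
Level (CPM) of Inhba, Thbs1, Tgfbi and Tgfbr2 in macrophages divided by UMIs per cell of Il1b, Arg1, Cxcl9 or the 3 C1q genes, KO in red left of WT in blue, with 95% counting intervals. Inhba differs between libraries in Il1b-high cells (279.7 CPM in KO, 163 CPM in WT) and hardly in Il1b-low cells (46.8 CPM in KO, 43.1 CPM in WT), whereas Thbs1 is lower in KO in each subset.

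Within single macrophages thinned to 2000 UMIs, Inhba and Thbs1 were read together in 227 KO cells and 559 WT cells, 1.23 times in KO and 1.13 times in WT the number given by the product of their shares. Of Inhba-carrying macrophages, 85.7% in KO and 92.7% in WT carried Thbs1, against 66.4% and 79.9% of the others. Inhba was found with Il1b 1.30 times as often as the product in KO and 1.21 times in WT, and with C1qa 0.78 times in KO and 0.73 times in WT. With Tgfbi the ratio was 0.98 in KO and 0.93 in WT, close to the product of the shares. Cells differ in state, so shared state genes enter these ratios.

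In T cells the receptors, Tgfb1 and Smad7 were read in CD8 T cells (797 KO, 465 WT), in T cells with Foxp3, the regulator of regulatory T cells (128 KO, 118 WT), and in other CD4 T cells (432 KO, 149 WT). These subsets did not cover all 2150 KO and 1246 WT T cells, and T cells in none of them are not described separately. Foxp3+ T cells had far less Tgfbr2 than other CD4 T cells, with 101 CPM in KO and 59.5 CPM in WT against 323 CPM in KO and 293 CPM in WT. On the log2 scale the difference was -1.68 (-2.04 to -1.34) in KO and -2.30 (-2.79 to -1.84) in WT. Foxp3+ T cells were also where 3 members were higher in KO. Tgfb1 was at 366 CPM in KO and 251 CPM in WT (log2 0.55, 0.28 to 0.82), Tgfbr1 at 98.2 and 51.9 CPM (log2 0.92, 0.35 to 1.51), and the Tgfbr2 levels above give log2 0.76, 0.22 to 1.32. The Tgfbr1 levels rest on 73 UMIs in KO and 41 in WT.

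In CD8 T cells Tgfb1 was at 308 CPM in KO and 376 CPM in WT (log2 -0.29, -0.41 to -0.17), and in other CD4 T cells at 256 and 304 CPM (log2 -0.25, -0.48 to -0.02). Smad7 differed by subset as well. Other CD4 T cells held 199 CPM in KO and 352 CPM in WT (log2 -0.82, -1.05 to -0.59) and Foxp3+ T cells 184 and 267 CPM (log2 -0.54, -0.86 to -0.22), while CD8 T cells held 305 CPM in KO and 273 CPM in WT (log2 0.16, 0.03 to 0.29).

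**Figure D4:**
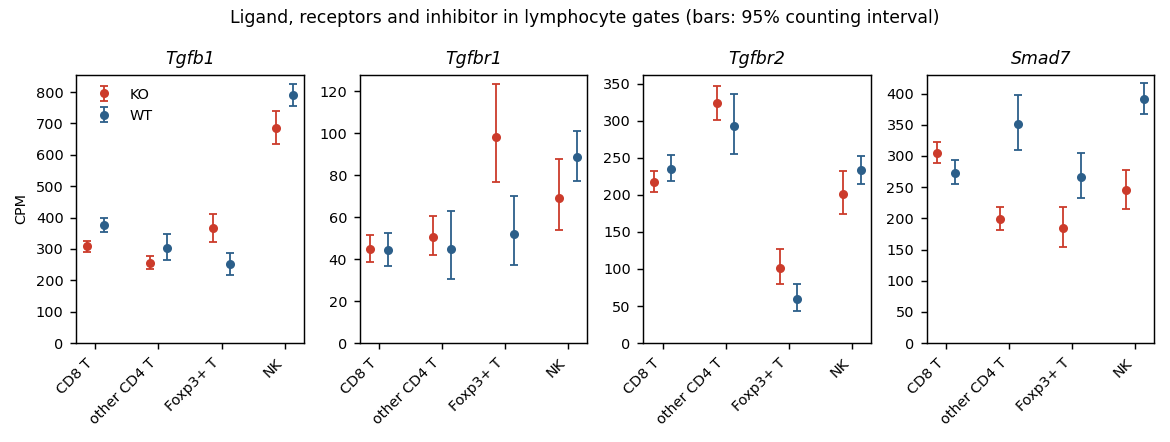
Level (CPM) of Tgfb1, Tgfbr1, Tgfbr2 and Smad7 in CD8 T cells, other CD4 T cells, Foxp3+ T cells and NK cells, KO in red left of WT in blue, with 95% counting intervals. Tgfbr2 is lowest in Foxp3+ T cells of both libraries (101 CPM in KO, 59.5 CPM in WT), and Smad7 is lower in KO in NK cells, other CD4 T cells and Foxp3+ T cells but not in CD8 T cells.

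The lower Thbs1 and Tgfbi of KO T cells were read at low levels, 20.2 CPM in KO and 62.4 CPM in WT for Thbs1 (log2 -1.63, -1.87 to -1.39) and 6.31 and 15.0 CPM for Tgfbi (log2 -1.25, -1.71 to -0.80). The macrophage gene Lyz2, which T cells should lack, was at 116 CPM in KO and 229.8 CPM in WT T cells, and was set against both genes as a measure of macrophage RNA. Per 1000 Lyz2 UMIs, T cells held 174 (150.0 to 202) Thbs1 UMIs in KO and 272 (244 to 302) in WT, and macrophages 179 (176 to 181) in KO and 268 (266 to 270.1) in WT. For Tgfbi the T cell values were 54.6 (42.0 to 69.8) in KO and 65.2 (53.2 to 79.2) in WT, and the macrophage values 55.4 (54.0 to 56.7) and 65.8 (64.9 to 66.6). Over all T cells the intervals of each library thus include its macrophage ratio. By subset, Thbs1 per 1000 Lyz2 UMIs was 168 (127 to 220.0) in KO and 156 (128 to 188) in WT CD8 T cells, and 255 (123 to 489) in KO and 1210.1 (943 to 1556) in WT Foxp3+ T cells. The WT subsets therefore lay below and above the WT macrophage ratio, and the part of macrophage RNA in the T cell differences was not tested. In WT Foxp3+ T cells 1 cell held 55 of 144 Thbs1 UMIs, and in KO NK cells 1 cell held 19 of 65.

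Tumour cells gave a different picture for the 2 genes. Thbs1 was at 6.64 CPM in KO and 20.6 CPM in WT (log2 -1.64, -2.04 to -1.25), and per 1000 Lyz2 UMIs at 210.1 (160.3 to 272) in KO and 288 (249 to 331) in WT, intervals that include the macrophage ratios. Tgfbi was at 13.7 CPM in KO (147 UMIs) and 31.5 CPM in WT (390 UMIs; log2 -1.20, -1.48 to -0.92). Per 1000 Lyz2 UMIs Tgfbi stood at 435 (356 to 529) in KO and 440.2 (389.8 to 496) in WT, above the macrophage ratio in both. Lyz2 itself was at 31.6 CPM in KO and 71.7 CPM in WT tumour cells, so it moved with Tgfbi, and its part in the Tgfbi difference was not tested further. Fibroblasts held 399 CPM of Thbs1 in KO and 359 CPM in WT (log2 0.15, -0.12 to 0.42), and 459.7 and 612 CPM in the stricter gate, where the direction turned (log2 -0.41, -0.69 to -0.14). KO fibroblasts also carried the red cell gene Hbb-bs at 2049 CPM, against 0.899 CPM in WT, and its part in these levels was not tested.

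**Figure D5:**
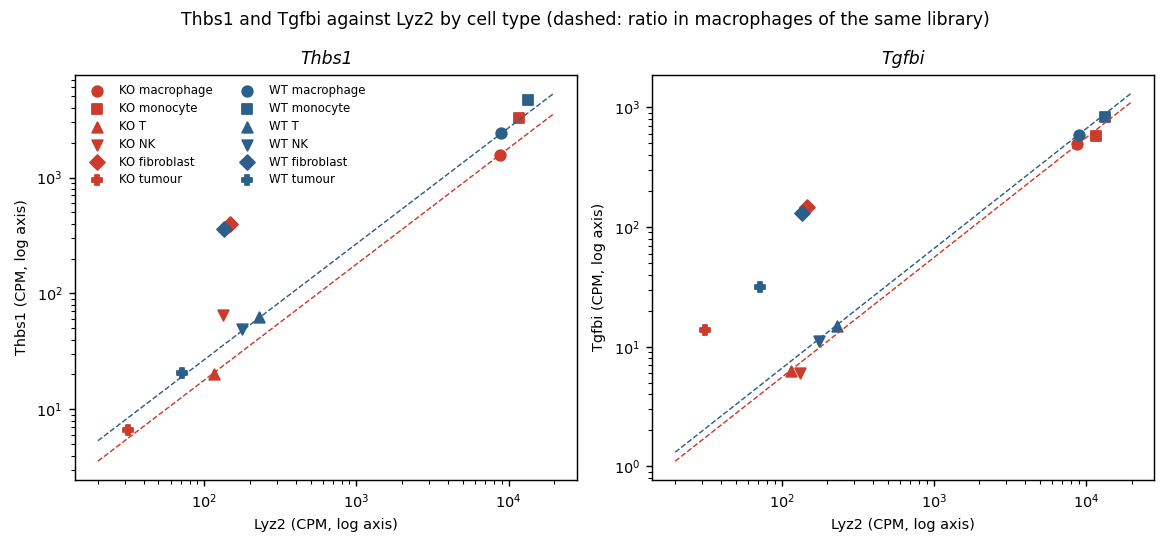
Thbs1 (left) and Tgfbi (right) against the macrophage gene Lyz2, all in CPM on log axes, 1 point per cell type and library, KO in red and WT in blue, with dashed lines at the ratio found in macrophages of the same library. T cells as a whole lie on the line of their own library for both genes, tumour cells lie near it for Thbs1 and above it for Tgfbi, and fibroblasts lie above it for both.

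Around the 9 members, 6 lists of ligands, receptors, genes that store or release latent TGF-beta, signal transducers, inhibitors and targets named 71 genes, the members included. In macrophages 4 of 65 genes with enough UMIs were past 2-fold (6.15%, beside 6.09% of all genes), all higher in KO, and the median log2 ratio was -0.04, beside -0.01 over all genes. They were Id1, a direct Smad target and inhibitor of helix-loop-helix factors, at 20.04 CPM in KO and 7.70 CPM in WT (log2 1.38, 1.15 to 1.61), the latent TGF-beta binding protein gene Ltbp1 at 21.0 CPM in KO and 9.44 CPM in WT (log2 1.16, 0.94 to 1.37), and the matrix genes Col1a1 at 12.8 CPM in KO and 5.85 CPM in WT (log2 1.13, 0.85 to 1.41) and Ccn1 at 11.4 CPM in KO and 5.44 CPM in WT (log2 1.07, 0.77 to 1.37). The fibroblast marker Sparc was at 43.8 CPM in KO and 22.0 CPM in WT macrophages, and the tumour marker Rhox5 at 98.9 and 51.7 CPM, and their part in these levels was not tested. Lower in KO, within 2-fold, were fibronectin Fn1 at 294 CPM in KO and 458 CPM in WT (log2 -0.64, -0.69 to -0.59) and the receptor-activated Smad3 at 46.7 CPM in KO and 66.9 CPM in WT (log2 -0.52, -0.64 to -0.40). Ltbp3 was at 5.50 CPM in KO and 10.4 CPM in WT (log2 -0.91, -1.28 to -0.57), and Lrrc32, whose product GARP holds latent TGF-beta on the cell surface, at 2.47 CPM in KO and 4.64 CPM in WT (log2 -0.91, -1.47 to -0.39). All 8 signal transducers had a log2 ratio below 0 in macrophages, with a median of -0.13 beside -0.01 over all genes.

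In T cells 11 of 57 list genes were past 2-fold (19.3%, beside 9.37% of all genes), 6 higher and 5 lower, with Thbs1 and Tgfbi among the lower. The lower ones also include Itgav, the integrin chain that releases TGF-beta, at 159 CPM in KO and 456 CPM in WT (log2 -1.51, -1.60 to -1.43), and Smad3 at 37.9 CPM in KO and 96.3 CPM in WT (log2 -1.35, -1.53 to -1.17). Furin, the protease that cleaves the propeptide, was at 106 CPM in KO and 189 CPM in WT (log2 -0.83, -0.95 to -0.72), within 2-fold. Among the higher ones was Tgfbr3, the co-receptor betaglycan, at 45.3 CPM in KO and 19.9 CPM in WT (log2 1.18, 0.91 to 1.46). Itgae, which encodes CD103 and is induced by TGF-beta in T cells, was at 46.2 CPM in KO and 27.2 CPM in WT (log2 0.76, 0.52 to 1.01), and in CD8 T cells at 69.3 CPM in KO and 20.8 CPM in WT (log2 1.74, 1.34 to 2.16). Other listed targets were mixed in CD8 T cells. Pmepa1 was higher in KO (log2 0.65, 0.52 to 0.79), while the intervals of Skil (log2 -0.06) and Klf10 (log2 -0.10) crossed 0. The part of the make-up of the CD8 T cells in these ratios was not tested. The activin receptor gene Acvr2a was at 30.6 CPM in KO and 9.53 CPM in WT (log2 1.68, 1.08 to 2.33) in CD8 T cells. Also in CD8 T cells, Id3 was at 27.5 CPM in KO and 11.9 CPM in WT (log2 1.21, 0.65 to 1.80), Itgav at 104 CPM in KO and 409.7 CPM in WT (log2 -1.98, -2.14 to -1.82), Smad3 at 36.0 CPM in KO and 57.2 CPM in WT (log2 -0.67, -0.99 to -0.34) and Bmpr2 at 10.9 CPM in KO and 20.8 CPM in WT (log2 -0.93, -1.51 to -0.35), while Acvr1 had 8 UMIs in KO and 21 in WT, and Fst 20 and 2. Over all T cells Bmpr2 was at 21.0 CPM in KO and 39.5 CPM in WT (log2 -0.91, -1.17 to -0.65). In CD8 T cells the ratio of Tgfbr3 was log2 0.60 (0.14 to 1.07) and that of Furin 0.03 (-0.25 to 0.31). The mix of T cells differed between the libraries, and its part in the pooled T cell ratios of the list genes was not tested. Fst, which encodes the activin antagonist follistatin, and the matrix gene Postn rest on few WT UMIs, with 68 in KO and 7 in WT for Fst and 85 in KO and 10 in WT for Postn.

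In NK cells 8 of 37 list genes were past 2-fold (21.6%, beside 6.71%), all lower in KO, and 33 of 37 had a log2 ratio below 0, with a median of -0.43 beside -0.06 over all genes. They include the Smad repressor Ski at 92.4 CPM in KO and 209 CPM in WT (log2 -1.18, -1.52 to -0.86), Smad3 at 53.2 CPM in KO and 109 CPM in WT (log2 -1.03, -1.48 to -0.60), and Smurf1, a ubiquitin ligase of the pathway, at 14.1 CPM in KO and 32.4 CPM in WT (log2 -1.20, -2.14 to -0.38). Fn1, also past 2-fold in NK cells, rests on 4 UMIs in KO and 39 in WT. The others past 2-fold there had few KO UMIs and intervals that crossed 0. They were Tgfbr3 (2 UMIs in KO and 20 in WT), Ccn1 (3 and 17), Col1a1 (3 and 19) and Smad5 (7 and 36). In monocytes 5 of 52 were past 2-fold (9.62%, beside 7.91%), among them Tgfbr3, with 2 UMIs in KO and 42 in WT. Smad3 was at 65.1 CPM in KO and 109 CPM in WT (log2 -0.74, -1.05 to -0.45) in monocytes and Ccn1 at 15.8 CPM in KO and 2.55 CPM in WT (log2 2.63, 1.66 to 3.65). Pmepa1, which encodes an inhibitor of the pathway, was at 21.3 CPM in KO and 8.004 CPM in WT (log2 1.41, 0.74 to 2.07), and the BMP receptor gene Bmpr2 at 33.5 CPM in KO and 61.0 CPM in WT (log2 -0.87, -1.30 to -0.45). Fn1 at 275 CPM in KO and 395 CPM in WT (log2 -0.52, -0.67 to -0.37), Mmp14 at 125 CPM in KO and 87.5 CPM in WT (log2 0.51, 0.27 to 0.75) and Nrros at 335 CPM in KO and 295 CPM in WT (log2 0.18, 0.04 to 0.32) were within 2-fold in monocytes.

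In tumour cells 9 of 59 list genes were past 2-fold (15.3%, beside 5.26%), 2 higher and 7 lower. Of the 59, 48 had a ratio below 0, with a median log2 of -0.31 beside -0.05 over all genes. The higher pair were Id1 at 52.3 CPM in KO and 25.4 CPM in WT (log2 1.04, 0.84 to 1.25) and Postn at 6.45 CPM in KO and 2.67 CPM in WT (log2 1.27, 0.65 to 1.92). Gdf15 at 16.6 CPM in KO and 9.14 CPM in WT (log2 0.86, 0.52 to 1.22) and Id3 at 285 CPM in KO and 249 CPM in WT (log2 0.19, 0.12 to 0.27) were within 2-fold. Fn1 was at 76.7 CPM in KO and 206 CPM in WT (log2 -1.43, -1.54 to -1.31) and Col1a1 at 17.9 CPM in KO and 48.5 CPM in WT (log2 -1.44, -1.68 to -1.20). The contractile genes Acta2 and Tagln had 0 UMIs in KO, against 66 and 45 in WT. With 3 UMIs as the floor for KO, Acta2 was at least 19.0-fold lower and Tagln at least 13.0-fold lower. The fibroblast marker Sparc was at 301 CPM in KO and 376 CPM in WT tumour cells, and its part in these levels was not tested. In fibroblasts 7 of 55 list genes were past 2-fold (12.7%, beside 14.6%), 6 higher in KO, with Col3a1 at 11895 CPM in KO and 5941 CPM in WT (log2 1.002, 0.95 to 1.06) and Postn at 2423 CPM in KO and 1180.1 CPM in WT (log2 1.04, 0.92 to 1.16). Col1a1, within 2-fold, was at 12468 CPM in KO and 6983 CPM in WT (log2 0.84, 0.78 to 0.89). Bambi had 17 UMIs in KO and 8 in WT fibroblasts. Ccn2, a TGF-beta target of fibroblasts, was lower at 12.3 CPM in KO and 79.2 CPM in WT (log2 -2.69, -4.34 to -1.41). The tumour-marker cells in the fibroblast gate touch these values. The gate itself also required a minimum of raw collagen UMIs. Its cells were shallower in KO, with median depths of 4745 UMIs in KO and 9501.5 in WT. Collagen levels in this gate therefore depend on how its cells were chosen, and no direction is read from Col1a1 and Col3a1. The 4 fibroblast markers summed to 12979.5 CPM in KO and 7323 CPM in WT in this gate. In the stricter gate they summed to 14772 CPM in KO and 12025 CPM in WT. Values of the matrix genes in the stricter gate are not given here, and the part of the gate in their differences was not tested.

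Across 6 gates in 2 libraries, 12 points in all, the genes whose log2 level tracked each member best were taken from 9357 genes that reached 20 CPM in some point. One of the 6 is the dendritic gate that held mostly tumour cells. The points share libraries and cell types, so the correlations describe these libraries only and have no p. Thbs1 was most like Zeb2 (r = 0.99), Tgfbi like Gda (0.99), and Inhba like Lamp2 (0.98). Tgfb1 was most like Id2 (0.99), Tgfb2 like Tenm3 (0.99), Tgfbr1 like Skil (0.94), Tgfbr2 like Ccpg1 (0.98), Smad7 like Utrn (0.99) and Tgfb3, which is weakly read, like Prmt2 (0.89). Among the members themselves Thbs1 and Tgfbi (0.96), Tgfbi and Inhba (0.94), Thbs1 and Inhba (0.91) and Tgfbr2 and Smad7 (0.85) lay closest, and Tgfbi and Smad7 (-0.80) farthest apart.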

How the data were processed

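Single-cell RNA was read with the 10x Chromium Next GEM 3' v3.1 kit. Each deposited matrix holds UMI counts, not normalized, for every gene in every barcode. Per the file headers the authors made it with Cell Ranger 8.0.1. The submitters' processing notes name Cell Ranger 6.0.1, Seurat 4.0.3 and 4.0.4 and the build mm10. The sources used here do not give the annotation release. Table columns of other samples numbered 0.

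Cells needed at least 200 genes and no more than 20% of mitochondrial UMIs. Types were gated by raw marker UMIs: Cd3 genes at least 2 for T cells, NK receptor genes at least 2 without Cd3 for NK cells, a set of macrophage genes that includes Csf1r, Adgre1, Fcgr1 and Mrc1 at least 3 for macrophages, Ly6c2 at least 2 with Lyz2 at least 10 for monocytes, collagen genes at least 20 with Dcn, Lum and Pdgfra at least 3 for fibroblasts, and Y-linked transcripts at least 2 with at most 1 Ptprc UMI for tumour cells. Doublets were treated by leaving out cells of more than 1 type, and an alternative left out the 8% with the highest Scrublet scores. UMIs were summed per type and library and given as CPM. Ratios have exact conditional binomial intervals, levels exact Poisson intervals and shares exact Clopper-Pearson intervals, at 95%, tested on simulated data. Past 2-fold means a log2 of at least 1 in size with at least 20 UMIs in both libraries together.

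All 9 members were described. From the pathway lists at most 4 genes per direction and cell type were named, those with the interval bound farthest from 0. A further gate gene and a further split of T cells are not reported here. The genes most like a member were ranked by Pearson r of log2(CPM + 1). The members, lists and gates were chosen with earlier results of these data known. Alternatives changed the cell filter, the gates, the denominator, the weighting of cells, the depth and the cells kept. Python 3.11.15, numpy 2.4.6, scipy 1.17.1, pandas 2.3.3 and scanpy 1.11.5 were used.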

Additional observations from a re-analysis of the deposited data

Results flagged for a closer look

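Within T cells the KO over WT ratio of Tgfb1 had opposite signs, log2 0.55 in Foxp3+ T cells and -0.29 in CD8 T cells, a difference of 0.836. How the make-up of the CD8 T cells differed between the libraries is not reported here. The ratio of Tgfbr1 was log2 0.92 in Foxp3+ T cells and -0.58 in tumour cells, a difference of 1.5. That of Smad7 was log2 0.42 in fibroblasts and -0.82 in other CD4 T cells, a difference of 1.24, and in fibroblasts with few tumour markers it was 0.24 (-0.17 to 0.65). With 1 library per genotype none of these 3 differences was tested.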

How the results depend on the processing

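The count of members past 2-fold was recomputed under 65 settings and stayed within 1.5 times its value in 43 of them. In macrophages, monocytes, NK cells and fibroblasts the count was 0, so there only a count of 0 stayed within that range. The pooled 43 therefore mixes unlike limits and is no measure of how stable the counts are. Of 43 single member ratios, 22 kept their sign under all settings, among them Inhba (0.37 to 0.79), Thbs1 (-0.64 to -0.45) and Tgfbi (-0.37 to -0.20) in macrophages.

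In macrophages (0) the count was 1 (Tgfb2) without the highest Scrublet scores and in C1q-low cells alone. In monocytes (0) it was 1 (Tgfbr2) with marker minimums doubled. In T cells (2) it was 1 (Thbs1) with minimums doubled, and 0 with the mean of per-cell CPM. In NK cells (0) it was 2 with minimums doubled (Tgfbi, Thbs1) and after thinning to 2000 UMIs (Tgfbr1, Thbs1), and 1 with the mean of per-cell CPM (Thbs1), without the highest Scrublet scores (Tgfbi) and without the cell with the most UMIs (Tgfbi). The NK ratio of Thbs1 ran between -1.83 after thinning and 1.48 with the mean of per-cell CPM. In fibroblasts (0) it was 1 with minimums doubled (Inhba), without the highest Scrublet scores (Inhba) and with Fscn1 dropped from the dendritic gate (Tgfb2). In the original tumour gate (1) it was 0 with the stricter cell filter, minimums doubled, thinning or the highest Scrublet scores left out. It was also 0 with the deepest cells or the cell with the most UMIs left out. It was 2 with Fscn1 dropped (Tgfbi, Thbs1) or with the gate by Rhox5, Krt8 and Krt18 (Tgfb3, Inhba). The cause of these moves was not tested. Dropping Fscn1 and removing tumour-marker cells from fibroblasts were chosen after seeing the data.

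No paired analysis was possible because each genotype had 1 library. Depth limits fibroblasts (58 KO and 92 WT cells) and the original tumour gate (22 and 34 cells) most, and intervals cover counting error only.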

Other observations

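The dendritic gate without Fscn1, set after the data were seen, held more receptor RNA in KO. Tgfbr1 was at 65.6 CPM in KO and 24.6 CPM in WT dendritic cells (log2 1.42, 1.09 to 1.75), and Tgfbr2 at 38.5 CPM in KO and 19.7 CPM in WT (log2 0.97, 0.58 to 1.36). Tgfbi, in contrast, was at 30.7 CPM in KO and 69.5 CPM in WT (log2 -1.18, -1.49 to -0.87). Tgfb1 was at 123 CPM in KO and 148 CPM in WT dendritic cells (log2 -0.26, -0.44 to -0.09). The gate still carried other cells' markers: the 4 tumour markers summed to 738 CPM in KO and 963 CPM in WT, against 2520 and 2656 CPM in tumour cells. The B lineage gene Igkc was at 624 CPM in KO and 6.57 CPM in WT, and Plac8, used here as a monocyte marker, at 283 and 139 CPM. The 4 monocyte markers also summed to 659 CPM in KO B cells and 617 CPM in KO NK cells, so they do not point to monocytes alone. The part of other cell types in these differences was not tested. These values come from 1 library per genotype and were not tested.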
